A study of Mus musculus with 31 samples.

Results

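Collagen chain genes encode the polypeptides that wind into the triple helices of the collagens. They were examined here in a mouse mesothelioma grown at 3 body sites. Members were the genes whose symbol is Col, a number, the letter a and a number, and whose level was at least 1 TPM (a share of a library's transcripts, corrected for transcript length and scaled to a fixed total) in at least 5 whole tumour libraries. Of 44 such symbols listed among 54456 entries, 29 met this rule. The 29 comprised 8 of 11 fibril-forming chains, 5 of 6 chains of basement membrane networks, 3 of 6 chains of beaded filaments, 4 of 9 chains of fibril-associated collagens, all 3 short-chain network genes, both multiplexins, 1 of 4 transmembrane collagens, the single anchoring fibril gene and 2 others. Just inside the limit lay Col7a1 and Col9a3, each with 5 libraries at 1 TPM or more, and just outside lay Col20a1 with 4 libraries (0.480 to 1.34 TPM, median 0.704), Col11a2 with 1 (median 0.663) and Col6a5 with 1 (median 0.371). Some members passed the limit almost through 1 site alone, with at most 1 library at 1 TPM outside it. In whole tumours these were Col7a1 (5 subcutaneous libraries), Col23a1 (5 subcutaneous and 1 peritoneal) and Col9a3 (4 pleural and 1 peritoneal), and in sorted cells Col14a1 and Col23a1 (5 subcutaneous libraries each). A gene kept by the site where it is high had to differ there, so these members are described by their values in that set, without a test, and counts over members are descriptions. Col28a1 passed in whole tumours through 4 subcutaneous and 2 peritoneal libraries and 0 pleural ones, so its pleural differences are also given without a test.

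The tumours came from AB1-mCherry, a murine mesothelioma line made to carry a red fluorescent protein and enriched for its brightest cells before inoculation. All hosts were untreated female BALB/c mice of 12 weeks, and tumours were taken at day 10. RNA was sequenced from whole tumours of the pleural space (PL, 6 mice), the peritoneal space (IP, 5 mice) and the subcutaneous site (SC, 5 mice), and from sorted cells of tumours at each site (5 mice each). Sorted cells were negative for the leukocyte surface protein CD45 and positive for mCherry, whereas whole tumours also hold the cells of the host. A single transplanted line stands for the tumour at all sites, and a different RNA extraction kit served each kind of sample. Of the 29 members, 23 were listed among the sorted cell values, and all 23 were tested. Col7a1, Col8a2, Col9a3, Col26a1, Col27a1 and Col28a1 were not analysed in sorted cells.

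Most collagens are secreted proteins whose chains are hydroxylated, glycosylated and folded into a triple helix in the endoplasmic reticulum. The propeptides of fibril-forming collagens are then clipped, and the molecules assemble outside the cell. Fibril-forming collagens give connective tissue its tensile strength, network-forming collagens build basement membranes, and fibril-associated collagens decorate the fibril surface. In solid tumours fibroblasts are a main source of collagen, and mesothelioma cells, which can take a spindle-shaped form, can make fibrillar collagens themselves.

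Libraries stood apart in both tables. Among whole tumours, PL replicates 3 and 5 held 302 and 568.1 TPM of 6 skeletal muscle markers together, against at most 2.40 TPM in the other PL tumours, 2.13 to 2.94 TPM in IP tumours and 51.9 to 1056 TPM in SC tumours. Summed cartilage markers did not exceed 2.50 TPM in any whole tumour. Among sorted cells, SC replicates 1 and 2 held 214 and 141 TPM of 5 leukocyte markers, against 5.14 to 19.2 TPM in PL, 7.22 to 18.2 TPM in IP and 13.8 to 39.4 TPM in the other SC libraries. Msln, which encodes mesothelin and marks mesothelial cells and mesothelioma, was at 159 to 316 TPM in PL sorted cells, 208 to 304 TPM in IP sorted cells and 150 to 189 TPM in SC sorted cells. The other 5 mesothelial markers were not analysed in sorted cells. TPM tables do not keep read depth, so the depth behind each value is unknown.

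Collagen chain transcripts summed to 5756 ± 976 TPM in PL whole tumours (0.576% of all TPM), 5897 ± 1227 TPM in IP whole tumours (0.590%) and 6584 ± 738 TPM in SC whole tumours (0.658%; SD, n = 6, 5 and 5). In sorted cells the 23 listed chains summed to 4484 ± 448 TPM in PL (0.450%), 4037 ± 986 TPM in IP (0.405%) and 5895 ± 1196 TPM in SC (0.592%; SD, n = 5 each). Sums of single libraries overlapped between sites in both tables. Col3a1 alone supplied 53.8% ± 2.83 of the collagen TPM in PL whole tumours, 57.7% ± 0.666 in IP whole tumours and 53.7% ± 0.861 in SC whole tumours. In sorted cells its share was 58.6% ± 1.76 in PL, 63.4% ± 1.03 in IP and 61.1% ± 2.79 in SC. Col3a1, Col1a2, Col1a1 and Col4a1 were, in that order, the 4 highest members by mean TPM in each table, and mean levels spanned from 3329 TPM for Col3a1 to 0.802 TPM for Col28a1 in whole tumours.

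**Figure D1:**
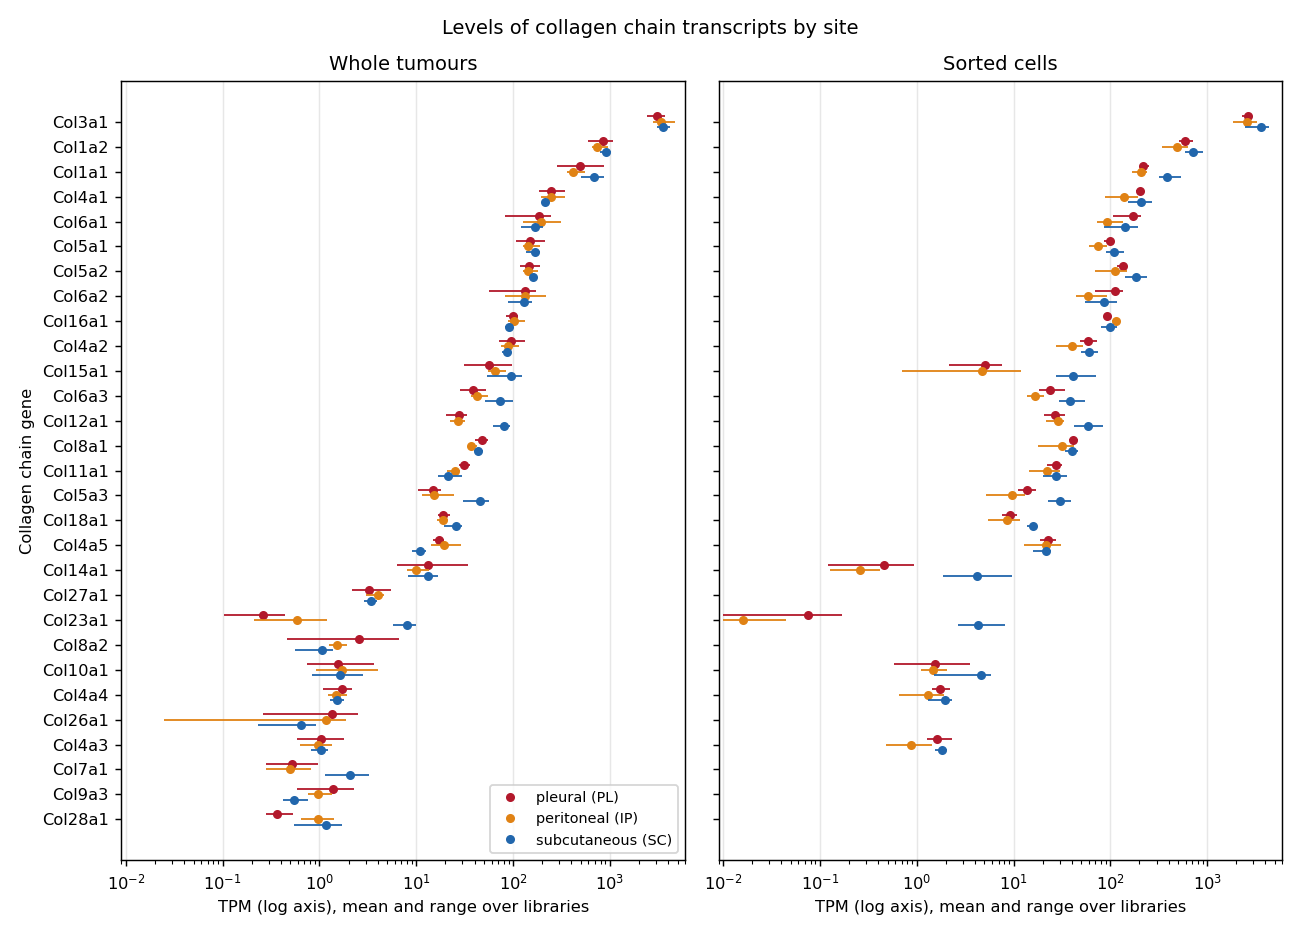
Mean TPM (points, log axis) and range over libraries (bars) of the 29 collagen chain genes in whole tumours (left) and of the 23 analysed in sorted cells (right), for PL, IP and SC, ordered by mean level in whole tumours; ranges that reach below 0.01 TPM are drawn to 0.01. Col23a1, Col12a1 and Col5a3 are the chains whose PL and IP ranges lie below the SC range in both tables.

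In whole tumours, most chains were not called between sites. Against SC, PL tumours had 7 members lower and 3 higher, and IP tumours had 6 lower and 1 higher at an adjusted p below 0.05. The same test called 3.40% of all 15054 genes lower and 9.40% higher in PL over SC, and 3.64% lower and 8.52% higher in IP over SC. Without the genes that passed the limit through 1 site, 5 of 26 members were lower and 2 higher in PL over SC, against 3.13% and 9.41% of 14961 genes, and 4 were lower and 1 higher in IP over SC, against 3.38% and 8.54%. The 5 lower in PL still include Col28a1, which passed the limit without a PL library. Col12a1, Col18a1, Col5a3 and Col6a3 fell at both PL and IP, 2 comparisons that share the 5 SC libraries. Without PL replicates 3 and 5, 10 members were lower and 3 higher in PL over SC, with Col1a1, Col14a1 and Col15a1 added, and 7 were lower and 1 higher in IP over SC, with Col1a1 added. Col7a1 and Col23a1 are counted among the lower in both. The shares of all genes called without these tumours are not given, so these counts cannot be read as particular to collagens. The median log2 fold change of the members was -0.09 in PL over SC and -0.07 in IP over SC, where the median of all tested genes was 0.07 in each. Groups did not overlap for 5 members lower, Col7a1, Col23a1 and Col28a1 among them, and 1 higher in PL over SC, where 1.93% and 5.83% of all genes were so separated. They did not overlap for 4 lower, Col7a1 and Col23a1 among them, and 1 higher in IP over SC, where 3.47% and 9.07% were. Between PL and IP whole tumours no member was called in either direction by limma, and the calls over all genes were 0.0266% higher and 0.0266% lower. At an unadjusted p below 0.05, 3 members differed there, Col11a1 and Col8a1 higher and Col28a1 lower in PL, where 4.92% of all genes were higher and 6.19% lower, and the smallest adjusted p of any member was 0.191. There 0 members were higher without overlap and 1, Col28a1, which passed the limit without a PL library, was lower, where 0.465% and 0.671% of all genes were.

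In sorted cells, 7 members were lower and 0 higher in PL over SC, against 1.25% of 12357 genes called lower and 0.397% higher. In IP over SC, 14 members were lower and 0 higher, against 6.33% called lower and 4.75% higher. Without Col14a1 and Col23a1, and without the other genes that passed through 1 site, 5 of 21 members were lower in PL over SC, against 0.967% of 12308 genes, and 12 in IP over SC, against 5.99%. At an unadjusted p below 0.05, 0 of the 23 members were higher and 11 lower in PL over SC, where 3.27% of all genes were higher and 7.78% lower. At that limit 1 was higher and 19 lower in IP over SC, where 12.9% of all genes were higher and 16.2% lower, and 9 were higher and 1 lower in PL over IP, where 13.4% and 15.5% were. The 11 and the 19 lower members include Col14a1 and Col23a1, which were kept by SC. Col12a1, Col15a1, Col18a1, Col1a1 and Col5a3 fell in PL and also in IP. The median log2 fold change of the members was -0.28 in PL over SC and -0.60 in IP over SC, where the medians of all genes were -0.02 and -0.03. Without the genes that passed through 1 site, the member medians were -0.134 and -0.583, and those of all genes -0.021 and -0.027. In PL over IP, 2 members rose and 0 fell, against 4.45% and 5.51% of all genes, with a member median of 0.31 and an all-gene median of 0.00. Groups did not overlap for 7 members, all lower, in PL over SC, where 2.04% of genes were lower and 1.07% higher without overlap. Col14a1 and Col23a1, kept by SC, were among these members and among those separated in IP over SC. In IP over SC groups did not overlap for 9 members, all lower, where 5.04% of genes were lower and 4.43% higher. In PL over IP they did not overlap for 0 higher and 1 lower, Col16a1, where 3.60% were higher and 5.96% lower. Without SC replicates 1 and 2, 5 members remained lower in PL over SC and 8 in IP over SC, with Col14a1 and Col23a1 counted in both, all of them among the chains named for the full set of libraries. The shares of all genes called without these libraries are not given.

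**Figure D2:**
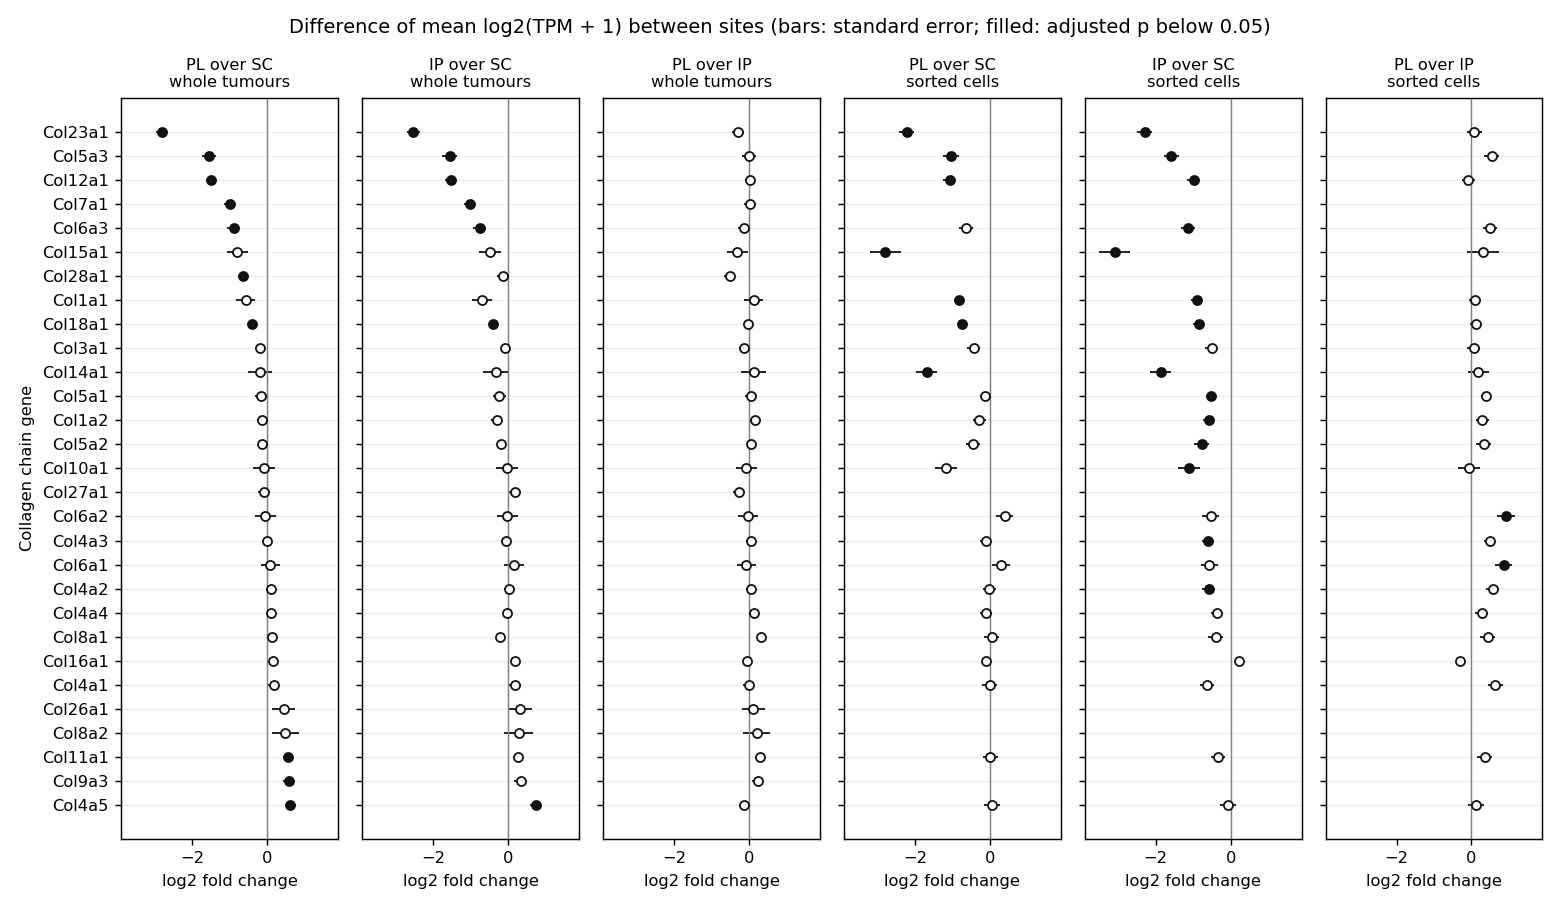
Difference between sites in mean log2(TPM + 1) (x axis, log2 units, with bars for the standard error) for each collagen chain gene (rows) in 6 comparisons. Filled points have an adjusted p below 0.05. That is no test for Col7a1, Col9a3 and Col23a1 in whole tumours and for Col14a1 and Col23a1 in sorted cells, kept by 1 site. It is also no test for Col28a1 in PL whole tumours, as it passed the limit without a PL library. Most points lie within 1 log2 unit of 0, and Col23a1 lies below -2 in all 4 comparisons with SC.

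Type I collagen, the main fibril protein of skin, bone and tendon, is built from the products of Col1a1 and Col1a2. In whole tumours Col1a1 was at 285, 437 and 863 TPM in PL (lowest, median and highest of 6), at 379, 548, 407, 359 and 403 TPM in IP and at 498, 740.0, 586, 751 and 860.0 TPM in SC. All but 1 IP tumour lay below every SC tumour, and PL tumours spanned the SC range. Its log2 fold change was -0.58 ± 0.25 (SE) in PL over SC, with an adjusted p of 0.133, and -0.70 ± 0.26 in IP over SC, with an adjusted p of 0.0871. Without PL replicate 3, the tumour with 863 TPM, the PL value was -0.76 with an adjusted p of 0.0283 and the IP value -0.70 with an adjusted p of 0.0399, and without PL replicates 3 and 5 the PL value was -0.93 with an adjusted p of 0.00743. PL replicate 3 also had the highest summed fibroblast markers (823 TPM, against 289 to 465 TPM in the other PL tumours) and smooth muscle markers (217 TPM, against 21.4 to 87.4 TPM) of its group; their part in the Col1a1 value was not tested.

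In sorted cells Col1a1 was at 253, 216, 207, 205 and 207 TPM in PL, at 238, 167, 224, 230.4 and 167 TPM in IP and at 541, 325, 433, 321 and 327 TPM in SC. Every PL and IP library lay below every SC library. Col1a1 fell by 0.81 ± 0.15 log2 units in PL (adjusted p = 0.00714) and by 0.91 ± 0.15 in IP (adjusted p = 0.00144) relative to SC. Col1a2 was at 709.6, 514, 528, 563 and 631 TPM in PL sorted cells, at 565, 378, 531, 635 and 339 TPM in IP sorted cells and at 908, 642, 868, 586 and 611 TPM in SC sorted cells, with overlapping groups. It fell by 0.58 ± 0.17 in IP over SC (adjusted p = 0.0433), a call that was lost under 14 of 26 alternatives, among them without any single one of IP replicates 2 and 5, SC replicates 1, 3 and 5 and PL replicates 2 to 5 (-0.45 to -0.63, adjusted p = 0.0517 to 0.118), and had a log2 fold change of -0.28 in PL over SC (adjusted p = 0.622). In whole tumours Col1a2 averaged 841 ± 191 TPM in PL, 740.3 ± 125 TPM in IP and 909.9 ± 92.7 TPM in SC and was not called.

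The ratio of Col1a1 to Col1a2 within a library, which does not depend on the scaling of libraries, was 0.372 ± 0.0350 in PL sorted cells, 0.428 ± 0.0465 in IP sorted cells and 0.537 ± 0.0386 in SC sorted cells (SD, n = 5 each). It was 0.356, 0.420, 0.392, 0.364 and 0.328 in the PL libraries, 0.421, 0.441, 0.421, 0.363 and 0.492 in the IP libraries and 0.596, 0.506, 0.499, 0.548 and 0.535 in the SC libraries, so that neither PL nor IP overlapped SC. The two-sided exact permutation p was 0.00794, the smallest that 5 against 5 libraries allow, for both PL over SC and IP over SC, and 0.0519 after adjustment over the 30 ratio comparisons made. In whole tumours the ratio was 0.563 ± 0.140 in PL, 0.566 ± 0.0274 in IP and 0.751 ± 0.108 in SC, with exact p values of 0.0455 for PL over SC and 0.0238 for IP over SC, adjusted to 0.105 and 0.0649. None of the 30 ratio comparisons passed the adjusted threshold.

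Type III collagen, made of Col3a1 chains alone and abundant in distensible tissues, had the highest member level. In whole tumours Col3a1 was at 2442, 3069 and 3719 TPM in PL (lowest, median and highest), at 3249, 4689.9, 3184, 2762 and 3162 TPM in IP and at 3243, 3519, 3087, 3719 and 4129 TPM in SC. In sorted cells it was at 2894, 2659.5, 2307, 2357 and 2931 TPM in PL, at 3048, 1880.3, 2773, 3242 and 1872 TPM in IP and at 4313, 3760.0, 4128, 2461 and 3355 TPM in SC. The groups overlapped in both tables and no comparison of Col3a1 was called. Its log2 fold change in sorted cells was -0.43 in PL over SC (adjusted p = 0.333) and -0.50 in IP over SC (adjusted p = 0.0728), and the IP value passed the threshold without IP replicate 1 (-0.58, adjusted p = 0.0490), IP replicate 4 (-0.60, adjusted p = 0.0437) or SC replicate 4 (-0.63, adjusted p = 0.0275). The ratio of Col3a1 to Col1a1 in whole tumours was 8.10 ± 0.430 in IP and 5.26 ± 0.731 in SC, without overlap (exact permutation p = 0.00794, adjusted 0.0519), and 7.06 ± 2.23 in PL.

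Type V collagen, whose chains come from Col5a1, Col5a2 and Col5a3, co-assembles with type I collagen and helps to start fibrils and limit their width. Of the 3, Col5a3 alone was called in whole tumours, where it was at 10.5, 15.2 and 18.1 TPM in PL (lowest, median and highest), at 14.3, 24.3, 12.5, 11.4 and 12.9 TPM in IP and at 30.7, 56.2, 37.9, 53.7 and 50.6 TPM in SC. In sorted cells it was at 17.1, 14.6, 13.3, 11.01 and 13.6 TPM in PL, at 11.4, 7.0, 11.7, 13.1 and 5.15 TPM in IP and at 39.0, 26.3, 31.6, 22.6 and 30.0 TPM in SC. All PL and IP libraries lay below all SC libraries in both tables. Col5a3 fell by 1.55 ± 0.19 log2 units in PL (adjusted p = 2.15e-04) and by 1.56 ± 0.20 in IP (adjusted p = 2.56e-04) relative to SC in whole tumours. In the sorted set it fell by 1.04 ± 0.21 in PL (adjusted p = 0.0151) and by 1.58 ± 0.21 in IP (adjusted p = 2.62e-04). The PL sorted call was lost without SC replicate 1 (-0.94, adjusted p = 0.0529) and without SC replicates 1 and 2 (-0.96, adjusted p = 0.125).

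Col5a1 and Col5a2 were not called in whole tumours, with means of 151 ± 40.0 and 148 ± 25.5 TPM in PL, 143 ± 25.5 and 141 ± 22.4 TPM in IP and 167 ± 21.3 and 160.0 ± 8.44 TPM in SC. In sorted cells Col5a1 was at 107, 92.3, 104, 85.1 and 104 TPM in PL, at 78.8, 63.1, 81.9, 92.3 and 60.5 TPM in IP and at 138, 102, 123, 89.7 and 94.0 TPM in SC. Sorted Col5a2 was at 149.5, 126, 138, 117 and 139 TPM in PL, at 135, 77.4, 124, 149.8 and 69.3 TPM in IP and at 239.9, 171, 211, 140.1 and 167 TPM in SC. Both fell in IP over SC, Col5a1 by 0.53 (adjusted p = 0.0204) and Col5a2 by 0.78 (adjusted p = 0.0206), with overlapping groups, and both calls were lost without SC replicate 1, where the adjusted p was 0.0547 and 0.0565, and without IP replicate 2, where it was 0.0602 and 0.0607. In PL over SC their log2 fold changes were -0.13 and -0.45 (adjusted p = 0.833 and 0.400).

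Col11a1, a chain of type XI collagen, a fibril collagen of cartilage that also occurs in tumour stroma, was at 27.4, 31.1 and 35.8 TPM in PL whole tumours (lowest, median and highest), at 24.7, 28.0, 20.8, 24.99 and 28.4 TPM in IP whole tumours and at 29.6, 16.6, 18.1, 19.5 and 22.01 TPM in SC whole tumours. IP replicates 2 and 7 and SC replicate 1 lay within the PL range, and the other IP and SC tumours below it. Col11a1 rose by 0.55 ± 0.12 log2 units in PL over SC (adjusted p = 0.0114), and its value in IP over SC was 0.27 (adjusted p = 0.164), or 0.39 without SC replicate 1 (adjusted p = 0.0287). Sorted Col11a1 averaged 27.7 ± 3.54 TPM in PL, 22.1 ± 6.71 TPM in IP and 27.8 ± 6.50 TPM in SC and was not called. Col27a1, a fibril collagen of cartilage, was at 2.19 to 5.51 TPM in whole tumours and not called.

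Among the basement membrane chains, Col4a1 and Col4a2 encode the most widespread type IV collagen. In whole tumours Col4a1 averaged 247 ± 59.5 TPM in PL, 248 ± 55.5 TPM in IP and 214 ± 9.99 TPM in SC, and Col4a2 averaged 94.1 ± 23.1, 89.2 ± 15.1 and 86.2 ± 5.72 TPM in PL, IP and SC; neither was called. In sorted cells Col4a1 was at 186, 209, 222, 184 and 221 TPM in PL, at 162, 92.4, 150.0, 193 and 88.7 TPM in IP and at 272, 179, 215, 151 and 217 TPM in SC. Sorted Col4a2 was at 48.6, 61.5, 72.4, 50.0 and 63.4 TPM in PL, at 48.8, 29.2, 44.8, 52.3 and 27.4 TPM in IP and at 73.9, 59.5, 58.3, 50.1 and 56.4 TPM in SC. For both genes IP replicates 2 and 5 were the lowest of all 15 sorted libraries. Col4a2 fell by 0.58 in IP over SC (adjusted p = 0.0440), a call lost under 13 of 26 alternatives, among them without any single one of IP replicates 2 and 5, SC replicates 1, 2, 3 and 5 and PL replicates 2 and 5 (-0.46 to -0.60, adjusted p = 0.0552 to 0.121). Col4a1 had a log2 fold change of -0.63 (adjusted p = 0.0531), which passed the threshold without IP replicate 1, IP replicate 4 or SC replicate 4 (-0.71, -0.77 and -0.74, adjusted p = 0.0401, 0.0236 and 0.0387). In PL over IP the value was 0.57 for Col4a2 (adjusted p = 0.0526) and 0.63 for Col4a1 (adjusted p = 0.0552).

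Col4a3, Col4a4 and Col4a5 encode the type IV chains known from the basement membranes of kidney glomeruli and lung alveoli. Col4a5 was at 14.8, 17.3 and 19.5 TPM in PL whole tumours (lowest, median and highest), at 18.7, 29.1, 14.3, 14.9 and 20.0 TPM in IP whole tumours and at 12.0, 9.05, 10.7, 10.4 and 12.6 TPM in SC whole tumours. Every PL and IP tumour lay above every SC tumour. Col4a5 rose by 0.61 ± 0.15 log2 units in PL (adjusted p = 0.0173) and by 0.73 ± 0.15 in IP (adjusted p = 0.00878) relative to SC. The PL call was lost without SC replicate 2 (0.55, adjusted p = 0.0548). In sorted cells Col4a5 averaged 22.9 ± 3.96 TPM in PL, 21.8 ± 7.74 TPM in IP and 21.8 ± 3.42 TPM in SC, with log2 fold changes of 0.06 and -0.06 relative to SC that were not called.

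Col4a3 and Col4a4 were low, between 0.588 and 2.15 TPM in whole tumours, and were not called there. In sorted cells Col4a3 was at 1.43, 1.49, 2.32, 1.28 and 1.55 TPM in PL, at 1.07, 0.509, 0.890, 1.45 and 0.480 TPM in IP and at 2.08, 1.63, 1.55, 1.73 and 2.04 TPM in SC. All IP libraries lay below all SC libraries, and Col4a3 fell by 0.60 ± 0.15 in IP over SC (adjusted p = 0.0208). That call was lost without SC replicate 1 (-0.57, adjusted p = 0.0526), SC replicate 5 (-0.57, adjusted p = 0.0535) or IP replicate 2 (-0.53, adjusted p = 0.0621). Sorted Col4a4 averaged 1.75 ± 0.285 TPM in PL, 1.32 ± 0.551 TPM in IP and 1.95 ± 0.426 TPM in SC and was not called.

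Type VI collagen forms beaded filaments near cell surfaces from the products of Col6a1, Col6a2 and Col6a3. In whole tumours Col6a1 was at 82.5, 196 and 245 TPM in PL (lowest, median and highest), at 187, 311, 162, 126 and 190.0 TPM in IP and at 203, 188, 121, 165 and 174 TPM in SC. Col6a2 was at 56.3, 139 and 172 TPM in PL, at 128, 221, 109, 82.3 and 127 TPM in IP and at 141, 158, 89.3, 129 and 135 TPM in SC. PL replicate 3 was the lowest whole tumour for both genes, and neither was called. Col6a3 was at 28.5, 38.7 and 52.0 TPM in PL, at 40.3, 54.5, 38.9, 37.2 and 38.9 TPM in IP and at 58.9, 101, 50.8, 75.8 and 79.3 TPM in SC. PL replicate 2 and IP replicate 2 were the tumours that reached the lowest SC value. Col6a3 fell by 0.89 ± 0.17 log2 units in PL (adjusted p = 0.00592) and by 0.76 ± 0.18 in IP (adjusted p = 0.0153) relative to SC.

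In sorted cells Col6a1 was at 192, 169.5, 178, 108 and 209 TPM in PL, at 91.6, 78.1, 89.0, 136 and 72.5 TPM in IP and at 195, 130.3, 182, 85.7 and 114 TPM in SC. Sorted Col6a2 was at 127, 109, 114, 69.5 and 136 TPM in PL, at 50.7, 44.4, 58.1, 91.5 and 47.4 TPM in IP and at 118, 74.6, 114, 55.2 and 67.4 TPM in SC. PL replicate 4 and IP replicate 4 were what made PL and IP overlap for both genes. Col6a1 rose by 0.87 ± 0.23 (adjusted p = 0.0294) and Col6a2 by 0.93 ± 0.24 (adjusted p = 0.0267) in PL over IP, and these were the calls of that comparison. Both calls were lost when PL replicate 3, PL replicate 5, IP replicate 2 or IP replicate 5 was left out, with adjusted p values between 0.0540 and 0.0758, and that of Col6a1 also without PL replicate 1 or PL replicate 2 (adjusted p = 0.0518 and 0.0533). Sorted Col6a3 was at 34.3, 21.1, 24.6, 18.4 and 21.4 TPM in PL, at 13.9, 13.9, 20.8, 18.8 and 15.5 TPM in IP and at 55.0, 29.6, 42.7, 29.2 and 34.4 TPM in SC. It fell by 1.13 ± 0.19 in IP over SC without overlap (adjusted p = 0.00172), and its value in PL over SC was -0.64 (adjusted p = 0.125), or -0.77 without PL replicate 1 (adjusted p = 0.0346). Col6a2 and Col6a1, Col4a1 and Col4a2, Col4a4 and Col4a3, and Col3a1 and Col5a2 are neighbours in the genome.

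Of the fibril-associated chains, Col12a1 encodes a collagen that binds the surface of type I fibrils and is abundant in tissues under tension. In whole tumours it was at 20.5, 28.3 and 33.6 TPM in PL (lowest, median and highest), at 27.6, 32.05, 22.5, 28.1 and 24.7 TPM in IP and at 92.1, 82.8, 61.4, 78.9 and 87.4 TPM in SC. In sorted cells it was at 27.0, 23.5, 33.7, 20.6 and 30.7 TPM in PL, at 31.7, 21.5, 33.5, 31.1 and 25.7 TPM in IP and at 84.4, 59.2, 57.5, 49.6 and 42.4 TPM in SC. No PL or IP library reached the lowest SC library in either table. In whole tumours Col12a1 fell by 1.51 ± 0.13 log2 units in PL (adjusted p = 6.43e-06) and by 1.54 ± 0.14 in IP (adjusted p = 8.93e-06) relative to SC. In the sorted set it fell by 1.07 ± 0.18 in PL (adjusted p = 0.00297) and by 0.98 ± 0.18 in IP (adjusted p = 0.00282). These 4 calls held under all 26 alternatives.

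Col14a1, which encodes a related collagen of the fibril surface, was at 6.38, 8.0 and 34.2 TPM in PL whole tumours (lowest, median and highest), at 9.24, 7.99, 9.05, 10.5 and 13.4 TPM in IP whole tumours and at 10.9, 16.8, 8.24, 12.9 and 16.7 TPM in SC whole tumours, and was not called. PL replicate 3 held the 34.2 TPM, and without PL replicates 3 and 5 the log2 fold change in PL over SC was -0.71 (adjusted p = 0.0207), against -0.20 with them. In sorted cells Col14a1 was at 0.121, 0.250, 0.286, 0.929 and 0.698 TPM in PL, at 0.366, 0.128, 0.417, 0.230 and 0.154 TPM in IP and at 9.63, 3.66, 2.97, 2.61 and 1.87 TPM in SC. No PL or IP library reached 1 TPM, and every SC library exceeded it. The sorted log2 fold change of Col14a1 was -1.69 in PL over SC and -1.87 in IP over SC, or -2.92 and -3.40 with a pseudocount of 0.1. It passed the limit on low values through the SC libraries, where it was high, so no test is given.

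Col16a1, a fibril-associated chain whose sorted libraries are given because their PL and IP ranges separated, was between 80.5 and 133 TPM in every library of both tables and was not called in any comparison. In sorted cells it was at 99.3, 87.5, 85.2, 92.5 and 101 TPM in PL and at 105, 118, 112, 122 and 118 TPM in IP, without overlap, with a log2 fold change of -0.30 (adjusted p = 0.0550). Under 8 of 26 alternatives this comparison passed the threshold, among them without IP replicate 1, SC replicate 3 or SC replicate 4 (-0.34, -0.30 and -0.30, adjusted p = 0.0464, 0.0482 and 0.0355). Col9a3, a chain of the cartilage collagen type IX, was at 0.586, 1.27 and 2.26 TPM in PL whole tumours (lowest, median and highest), at 1.33, 0.800, 0.961, 0.957 and 0.754 TPM in IP whole tumours and at 0.418, 0.433, 0.770, 0.567 and 0.560 TPM in SC whole tumours. Its log2 fold change was 0.58 in PL over SC, with overlapping groups, and no SC tumour reached 1 TPM.

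**Figure D3:**
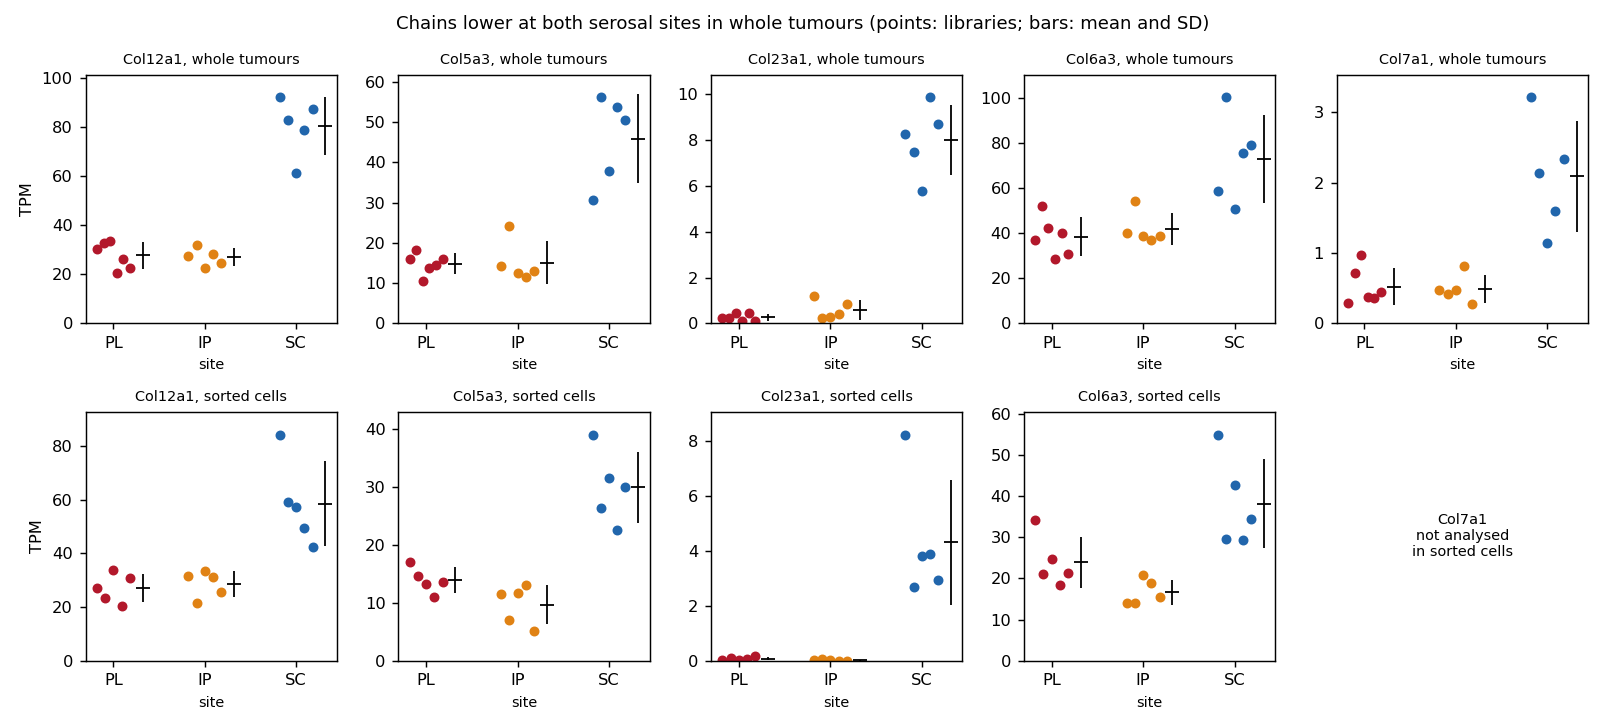
TPM of 5 chains in whole tumours (upper row) and of 4 of them in sorted cells (lower row), by site, each point a library and each bar the mean and SD. For Col12a1, Col5a3 and Col23a1 every PL and IP point lies below every SC point in both rows.

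The transmembrane collagen gene Col23a1, whose product sits in the plasma membrane and can be shed from it, had the largest log2 fold changes of the members in whole tumours. In whole tumours it was at 0.103, 0.238 and 0.446 TPM in PL (lowest, median and highest), at 1.18, 0.211, 0.278, 0.391 and 0.849 TPM in IP and at 8.27, 7.50, 5.76, 9.88 and 8.70 TPM in SC. Sorted libraries had it at 0.0379, 0.115, 0.00726, 0.0464 and 0.170 TPM in PL, at 0.0128, 0.0443, 0.0179, 0 and 0.00577 TPM in IP and at 8.25, 2.67, 3.83, 3.87 and 2.93 TPM in SC. Every SC library in either table lay above every PL and IP library of that table, and IP replicate 4 of the sorted cells was listed at 0. The mean was 0.0328 of the SC mean in PL whole tumours and 0.0726 of it in IP whole tumours. On the log2(TPM + 1) scale, which understates changes of low genes, the difference of Col23a1 in whole tumours was -2.83 in PL over SC and -2.53 in IP over SC. In the sorted set it was -2.22 in PL over SC and -2.30 in IP over SC. These are descriptions: 5 of the 6 whole tumours and all 5 sorted libraries that reached 1 TPM were SC. With a pseudocount of 0.1 the values were -4.57 and -3.77 in whole tumours and -4.61 and -5.14 in sorted cells, in each case PL over SC and then IP over SC.

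Col7a1 encodes the collagen of the anchoring fibrils that fasten the epidermis to the dermis. In whole tumours it was at 0.282, 0.408 and 0.966 TPM in PL (lowest, median and highest), at 0.475, 0.423, 0.472, 0.818 and 0.278 TPM in IP and at 3.22, 2.13, 1.15, 1.60 and 2.34 TPM in SC. Neither PL nor IP overlapped SC. The log2 fold change of Col7a1 was -0.9999 in PL over SC and -1.02 in IP over SC, or -1.83 and -1.87 with a pseudocount of 0.1, given without a test because the SC tumours alone reached 1 TPM. Summed keratinocyte markers were at 2.09 to 6.20 TPM in PL whole tumours, 2.13 to 4.20 TPM in IP whole tumours and 1.23 to 2.77 TPM in SC whole tumours, where the highest SC value lay within the range of both other sites.

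Promoter sequences are shown for Col23a1, Col5a3 and Col7a1, which with Col12a1 were the chains whose PL and IP whole tumours both lay below all SC tumours, and for the stretch shared by Col4a1 and Col4a2, an example of a neighbouring pair. They come from RefSeq on build GRCm38.p6, a different build from the one the authors used, and run from 250 bases before to 50 bases after the start of the gene, except for the shared stretch of 78 bases. Capitals mark GGGCGG (the GC box), CCAAT and TATAAA on either strand.
Col23a1, chr11:51289670-51289969, plus strand: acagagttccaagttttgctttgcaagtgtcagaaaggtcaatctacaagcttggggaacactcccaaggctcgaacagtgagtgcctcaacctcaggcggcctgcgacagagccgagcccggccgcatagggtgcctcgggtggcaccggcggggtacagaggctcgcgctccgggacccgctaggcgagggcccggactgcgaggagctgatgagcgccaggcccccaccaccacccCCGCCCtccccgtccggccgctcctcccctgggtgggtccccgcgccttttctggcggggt
Col5a3, chr9:20815018-20815317, minus strand: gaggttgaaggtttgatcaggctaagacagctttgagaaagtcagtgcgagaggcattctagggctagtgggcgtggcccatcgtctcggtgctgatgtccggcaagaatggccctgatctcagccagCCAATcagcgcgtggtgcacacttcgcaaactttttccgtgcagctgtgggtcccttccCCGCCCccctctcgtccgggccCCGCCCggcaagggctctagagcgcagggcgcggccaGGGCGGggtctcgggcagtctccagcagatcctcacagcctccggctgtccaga
Col7a1, chr9:108953336-108953635, plus strand: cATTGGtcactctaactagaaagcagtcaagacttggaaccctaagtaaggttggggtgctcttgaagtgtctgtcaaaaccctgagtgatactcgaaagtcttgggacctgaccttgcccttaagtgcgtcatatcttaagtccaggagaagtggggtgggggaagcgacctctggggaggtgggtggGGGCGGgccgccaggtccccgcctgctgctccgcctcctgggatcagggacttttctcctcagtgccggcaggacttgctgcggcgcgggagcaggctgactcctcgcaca
Col4a1 and Col4a2, chr8:11312777-11312854, plus strand: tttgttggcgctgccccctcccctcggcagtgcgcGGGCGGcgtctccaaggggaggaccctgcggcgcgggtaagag
RefSeq windows were found for 22 of the 29 members. GGGCGG occurred in windows of 15 members, CCAAT in those of 9 and TATAAA in those of 2, namely Col10a1 and Col3a1. Of all 32851 windows of 300 bases, 35.7% held GGGCGG on either strand, 37.4% held CCAAT and 13.6% held TATAAA. The Col23a1 window held 1 GGGCGG match, the Col5a3 window 3 with 1 CCAAT, and the Col7a1 window 1 GGGCGG and 1 CCAAT. The matches describe letters in these windows and were not tied to the differences between sites.

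The multiplexins Col15a1 and Col18a1 encode collagens of basement membrane zones, and the end of the Col18a1 product is the source of endostatin. In whole tumours Col15a1 was at 31.3, 51.7 and 96.5 TPM in PL (lowest, median and highest), at 58.5, 83.6, 69.4, 59.4 and 54.4 TPM in IP and at 53.5, 112, 75.9, 123 and 112 TPM in SC, with overlapping groups. Its log2 fold change of -0.81 ± 0.28 in PL over SC had an adjusted p of 0.0677, or 0.0218 without PL replicate 3, 0.0484 without PL replicate 5 and 0.0360 without SC replicate 1. Sorted libraries held it at 5.47, 6.30, 2.15, 7.59 and 4.12 TPM in PL, at 5.21, 0.711, 11.9, 3.19 and 2.87 TPM in IP and at 70.6, 27.7, 34.2, 34.3 and 39.4 TPM in SC. The highest PL or IP library was below the lowest SC library by more than 2-fold. Col15a1 fell by 2.79 ± 0.42 in PL (adjusted p = 0.00138) and by 3.10 ± 0.42 in IP (adjusted p = 3.20e-04) relative to SC. Both calls held without SC replicates 1 and 2.

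Col18a1 was at 16.9, 18.3 and 22.6 TPM in PL whole tumours (lowest, median and highest), at 19.1, 21.5, 18.9, 16.2 and 19.4 TPM in IP whole tumours and at 19.5, 29.5, 27.1, 25.9 and 26.1 TPM in SC whole tumours. Apart from SC replicate 1, every SC tumour lay above the PL and IP tumours. Col18a1 fell by 0.42 ± 0.10 in PL (adjusted p = 0.0173) and by 0.40 ± 0.11 in IP (adjusted p = 0.0241) relative to SC, and both calls were lost without SC replicate 2 (-0.37 and -0.35, adjusted p = 0.0551 and 0.0663). The IP call was also lost without SC replicate 3 (-0.38, adjusted p = 0.0510) or SC replicate 5 (-0.40, adjusted p = 0.0507). Sorted libraries had it at 9.47, 9.07, 9.15, 7.56 and 10.9 TPM in PL, at 11.5, 7.15, 9.56, 9.51 and 5.42 TPM in IP and at 16.9, 17.5, 13.7, 16.2 and 15.5 TPM in SC. No PL or IP library reached the lowest SC library. It fell by 0.73 ± 0.16 in PL (adjusted p = 0.0220) and by 0.85 ± 0.16 in IP (adjusted p = 0.00326). The PL sorted call was lost under 7 of 26 alternatives, among them without any single one of PL replicates 2, 3 and 4 and SC replicates 1 and 2 (-0.67 to -0.73, adjusted p = 0.0554 to 0.0663) and without SC replicates 1 and 2 together (-0.66, adjusted p = 0.200).

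Of the short-chain collagens, which form hexagonal networks, Col8a1 was at 34.0 to 55.4 TPM in whole tumours and Col8a2 at 0.457 to 6.65 TPM, and neither was called there. Sorted Col8a1 was at 17.95 to 46.8 TPM and not called. Col10a1, a chain of growth plate cartilage, was at 0.745 to 4.02 TPM in whole tumours and not called there. Sorted libraries held it at 3.53, 0.892, 1.18, 0.583 and 1.47 TPM in PL, at 1.59, 1.10, 1.43, 2.03 and 1.23 TPM in IP and at 5.80, 5.29, 5.87, 1.52 and 4.80 TPM in SC. SC replicate 4 lay within the PL and IP ranges. Col10a1 fell by 1.12 ± 0.29 in IP over SC (adjusted p = 0.0228), a call lost under 6 of 25 alternatives, among them without any single one of IP replicate 2 and SC replicates 1, 3 and 5 (-1.02 to -1.09, adjusted p = 0.0544 to 0.0618). Its value in PL over SC was -1.18 (adjusted p = 0.0566), or -1.41 without PL replicate 1 (adjusted p = 0.00825) and -1.45 without SC replicate 4 (adjusted p = 0.00469). The remaining genes were Col28a1, related to the type VI chains and known from peripheral nerve, and Col26a1. Col28a1 was at 0.280, 0.324 and 0.535 TPM in PL whole tumours (lowest, median and highest), at 1.40, 0.698, 0.798, 0.638 and 1.28 TPM in IP whole tumours and at 0.551, 1.11, 1.03, 1.45 and 1.71 TPM in SC whole tumours. The log2 fold change of Col28a1 was -0.65 in PL over SC, without overlap, or -1.41 with a pseudocount of 0.1. In PL over IP it was -0.51, also without overlap. Since 4 SC, 2 IP and 0 PL tumours reached 1 TPM, the limit on low values favoured a lower PL level, and these values are given without a test. Col26a1 was at 0.0250 to 2.49 TPM and not called.

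**Figure D4:**
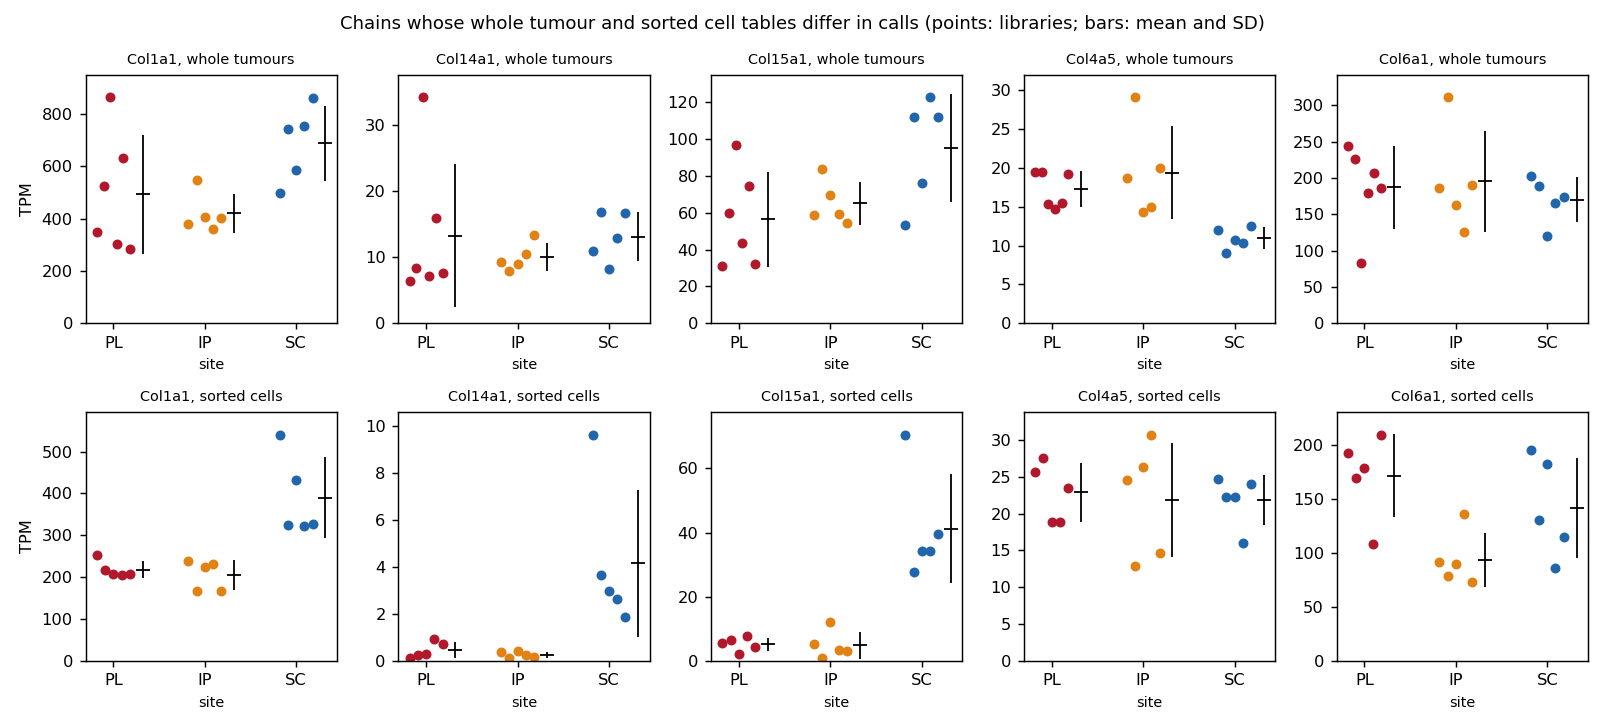
TPM of 5 chains with different site patterns in whole tumours (upper row) and sorted cells (lower row), by site, each point a library and each bar the mean and SD. Col15a1 and Col14a1 separate PL and IP from SC in sorted cells, Col4a5 does so in whole tumours, and Col6a1 is higher in PL than in IP in sorted cells.

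Some markers of other cells were also called between sites, and others were not. In bulk samples, fewer cells of a type and less RNA per cell cannot be told apart. Fibroblast markers summed to 289 to 823 TPM in PL whole tumours, 321 to 516 TPM in IP whole tumours and 542 to 828 TPM in SC whole tumours. Of the 8, 3 (Thy1, Mfap5 and Fap) fell in both PL and IP and 5 were not called, where 3.40% of all genes were called lower in PL and 3.64% in IP. Of 6 smooth muscle and pericyte markers tested, 0 were called by limma in PL or IP over SC. Cspg4 alone had an unadjusted p below 0.05 in PL, whereas 5 did in IP (Acta2, Cspg4, Myh11, Notch3 and Rgs5). In IP, 2 of the 6 log2 fold changes were positive and 4 negative, with a median of -0.53, where that of all genes was 0.07. Endothelial markers summed to 59.7 to 141 TPM in PL whole tumours, 66.4 to 103 TPM in IP whole tumours and 88.6 to 131 TPM in SC whole tumours, and leukocyte markers to 426 to 728, 395 to 591 and 553 to 740.2 TPM in PL, IP and SC. Of 6 endothelial markers 1 was called lower in PL and 1 in IP, and of 6 leukocyte markers 1 in PL and 3 in IP. All 6 of each list had negative log2 fold changes in both comparisons. In sorted cells 7 of the 8 fibroblast markers were listed and summed to 142 to 303 TPM in PL, 181 to 321 TPM in IP and 332 to 562 TPM in SC. Of these 7, Thy1, Mfap5, Pi16 and Dpt, 4 in all, fell in both comparisons with SC, where 1.25% of all genes were called lower in PL and 6.33% in IP. Pi16 passed the limit mostly through SC, with 5 SC, 2 PL and 1 IP libraries at 1 TPM. Sorted Thy1, a surface protein of fibroblasts and other cells, averaged 2.74 ± 0.610 TPM in PL, 4.11 ± 3.37 TPM in IP and 45.8 ± 19.3 TPM in SC, with log2 fold changes of -3.57 (adjusted p = 2.8e-05) and -3.35 (adjusted p = 3.4e-05) relative to SC. Sorted endothelial markers, 4 of 6 listed, summed to 3.28 to 19.2 TPM in PL, 1.79 to 9.98 TPM in IP and 16.9 to 29.8 TPM in SC, and 1 fell in PL and all 4 in IP. Of 5 leukocyte markers 1, Cd53, was called lower in both. All 5 had negative log2 fold changes in both, with medians of -1.48 in PL and -1.75 in IP, where those of all genes were -0.02 and -0.03. Their unadjusted p was below 0.05 for 2 in PL and 5 in IP, as it was for all 4 endothelial markers in PL. Sorted Msln, the 1 mesothelial marker listed there, was called higher by limma in IP over SC (0.52, without overlap), where 4.75% of all genes were. Its log2 fold change in PL over SC was 0.54, with overlapping groups and an unadjusted p below 0.05, and it was not called. The part of these markers in the collagen differences was not tested. The 6 mesothelial markers summed to 173 to 294 TPM in PL whole tumours, 176 to 229 TPM in IP whole tumours and 188 to 238 TPM in SC whole tumours, and the sites overlapped. Nearly all of that was Msln, which averaged 235 ± 49.7 TPM in PL, 186 ± 21.0 TPM in IP and 208 ± 19.5 TPM in SC and was not called. The other 5 were low, and of these Upk3b, Upk1b, Lrrn4 and Wt1 were higher in both PL and IP and Krt19 in IP, beside the rise of Col4a5. Upk3b, Upk1b, Lrrn4 and Krt19 passed the limit with 0 SC tumours at 1 TPM and Wt1 with 1. They were kept by the sites where they are high, so these rises are descriptions. The part of these markers in the rise of Col4a5 was not tested.

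**Figure D5:**
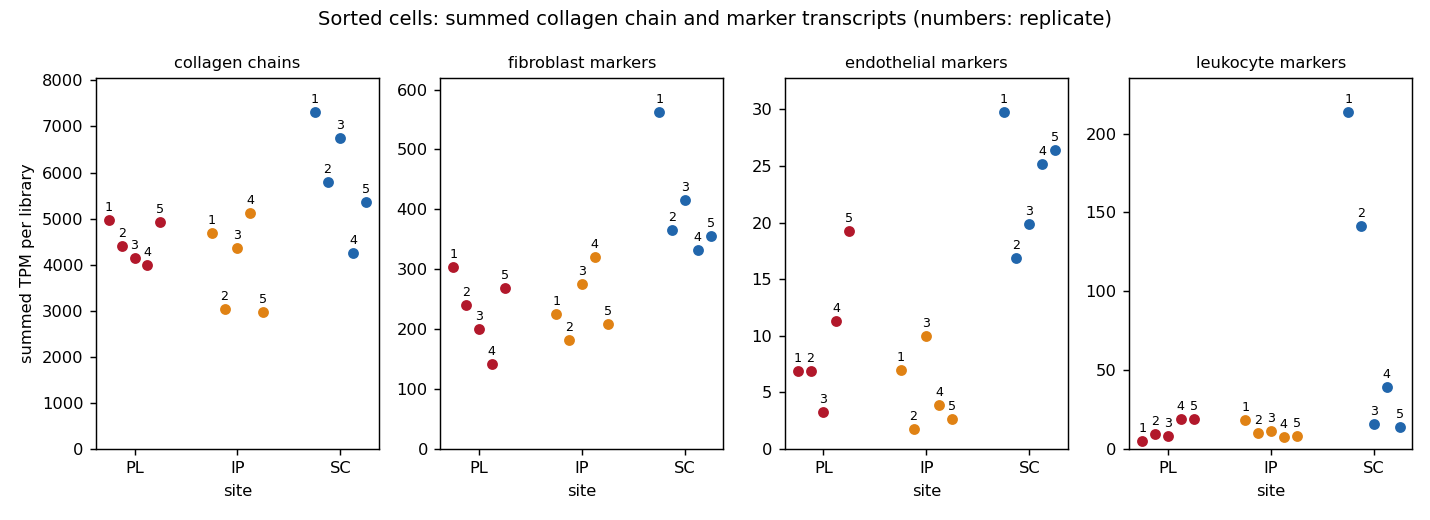
Summed TPM per sorted cell library of the 23 collagen chains and of fibroblast, endothelial and leukocyte markers, by site, with replicate numbers beside the points. SC libraries are at 332 TPM or more of fibroblast markers and PL and IP libraries at 321 TPM or less, and SC replicates 1 and 2 stand highest in leukocyte markers.

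Genes that act on collagen were read from 4 lists. Of the modification and folding genes, 21 were listed in whole tumours and 20 tested, of which 6 rose and 1 fell in PL over SC, where 9.40% of all genes were called higher and 3.40% lower. In IP over SC 3 rose and 2 fell, where 8.52% were called higher and 3.64% lower, and 0 were called by limma in PL over IP, where 4 had an unadjusted p below 0.05. Plod2, a lysyl hydroxylase that prepares collagen crosslinks, averaged 49.1 ± 11.5 TPM in PL, 39.0 ± 6.83 TPM in IP and 21.2 ± 2.38 TPM in SC whole tumours, and rose by 1.15 in PL (adjusted p = 2.3e-04) and by 0.84 in IP (adjusted p = 0.0033) relative to SC. P4ha1, a catalytic subunit of the prolyl hydroxylase that stabilises the helix, rose by 0.80 in PL (adjusted p = 0.0054) and by 0.52 in IP (adjusted p = 0.044). P4ha3, another such subunit, fell by 0.77 in PL (adjusted p = 0.045) and by 0.98 in IP (adjusted p = 0.021). The other 4 that rose in PL were P4hb (0.30), Plod1 (0.48), P3h1 (0.29) and Mia3 (0.23), with adjusted p values of 0.0074 to 0.025. In IP, Serpinh1, the collagen chaperone, rose by 0.33 (adjusted p = 0.024), and P3h2 fell by 0.48 (adjusted p = 0.013). Some of these small rises depended on the scaling of libraries. With median-of-ratios scaling 5 rose in PL, without Mia3, where 4.79% of all genes were called higher, and 1, Plod2, in IP, where 4.70% were. With quantile normalization 4 rose in PL, without Mia3 and P3h1, where 4.48% were called higher, and 3 in IP, namely P4hb, Plod2 and Serpinh1, where 4.84% were. In sorted cells 18 were tested, of which P4ha3 fell in both comparisons with SC, by 0.74 in PL (adjusted p = 0.015) and by 0.92 in IP (adjusted p = 0.0014). There 0 were called higher by limma. Over all genes, 1.25% were called lower and 0.397% higher in PL, and 6.33% and 4.75% in IP. P4ha2 and Plod2 also differed in PL over SC at an unadjusted p below 0.05, as did Fkbp14, P3h4 and P4ha1 in IP over SC. Sorted Plod2 averaged 45.8 ± 6.60 TPM in PL, 26.9 ± 7.69 TPM in IP and 29.0 ± 2.44 TPM in SC, and it rose by 0.78 in PL over IP (adjusted p = 0.013), as P4ha1 did by 0.44 (adjusted p = 0.028). In that comparison 4.45% of all genes were called higher.

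Of 7 procollagen processing genes, 5 were tested in each table. Adamts2, the protease that removes the amino-terminal propeptide of fibrillar procollagens, averaged 0.294 ± 0.180 TPM in PL sorted cells, 0.312 ± 0.325 TPM in IP sorted cells and 6.54 ± 3.18 TPM in SC sorted cells, with log2 fold changes of -2.47 in both PL and IP over SC, given without a test because the 5 SC libraries alone reached 1 TPM. The related protease gene Adamts14 rose by 0.74 in PL (adjusted p = 0.0086) and by 0.76 in IP (adjusted p = 0.0032). Pcolce, an enhancer of propeptide removal, rose by 0.40 in IP over SC (adjusted p = 0.0020) and fell by 0.56 in PL over IP (adjusted p = 6.5e-04). In sorted cells 0.397% of all genes were called higher in PL over SC, 4.75% higher in IP over SC and 5.51% lower in PL over IP. In whole tumours Adamts2 fell by 1.31 in IP over SC (adjusted p = 0.048), and 0 of the 5 were called by limma in PL over SC, where 1, Adamts2, had an unadjusted p below 0.05. Of 10 collagen receptor genes, 8 were tested in whole tumours, where Ddr2, a receptor kinase for fibrillar collagen, and Mrc2, an endocytic collagen receptor, rose in both PL (0.37 and 0.37, adjusted p = 0.023 and 0.035) and IP (0.42 and 0.42, adjusted p = 0.016 and 0.027). Of all genes, 9.40% were called higher in PL and 8.52% in IP. With either other scaling Mrc2 was not called in PL. In sorted cells 4 were tested and 0 called by limma in any comparison; at an unadjusted p below 0.05 the counts were 0 in PL over SC and 1, Itgb1, in each of IP over SC and PL over IP. Of 13 fibril regulators, 9 were tested in sorted cells, and Bgn and Dpt, which encode proteins that bind collagen fibrils, and Sparc, which encodes a collagen-binding matrix protein, fell in both PL (by 0.76, 0.97 and 0.32) and IP (by 0.90, 1.56 and 0.41) relative to SC. There 1.25% of all genes were called lower in PL and 6.33% in IP. Of 11 tested in whole tumours, Fn1, which encodes fibronectin, rose in PL (by 0.41) and in IP (by 0.43), where 9.40% and 8.52% of all genes were called higher. Bgn fell in IP (by 0.63), where 3.64% were called lower.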

How the data were processed

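RNA of 16 whole tumours and 15 samples of sorted cells was sequenced as single-end reads on an Illumina HiSeq, per the labels' protocols. The deposited values are TPM; the submitters' processing notes name kallisto and build GRCm39, while version, annotation and filters were not given in the sources used here. TPM sum to a fixed total, so a rise of some genes lowers the share of the rest, and read depth is unknown. Whole libraries summed to 1000000 TPM and sorted ones to 996124 to 998055 TPM after 17 entries with dates in place of symbols, 0.0685% to 0.105% of TPM, were dropped. The 15054 whole and 12357 sorted genes that reached 1 TPM in 5 or more libraries were tested with limma 3.58.1 in R 4.3.3 on log2(TPM + 1) with a mean-variance trend, 3 sites in 1 fit and Benjamini-Hochberg adjustment over all genes tested. Calls had an adjusted p below 0.05. The 2 tables were never tested against each other. Ratios of partner chains were compared by two-sided exact permutation tests (Python 3.11.15, scipy 1.17.1). The limma fit was also tried on simulated data.

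Groups follow the labels, and replicates are mice, numbered as in the sample titles; IP whole replicates 2, 3 and 4 are the libraries that the deposited table numbers 3, 4 and 5. The same mouse numbers occur in both tables, and whether they mark the same animals is not stated. Within a table, correlations of same-numbered libraries at 2 sites ran from -0.377 to 0.349, so the numbers were not taken to pair libraries across sites. Alternatives were another pseudocount (0.1), no filter or 5 TPM, other scalings, robust fitting, library weights, only the 2 sites compared, a replicate block and leaving out libraries. Named were the members called in any comparison, and Col1a1, Col1a2, Col3a1, Col4a1, Col4a2, Col6a1, Col6a2 and Col6a3 whether called or not; the other members are given by range, except that Col16a1 and Col4a4 were given further values after these were seen. Members that reached 1 TPM almost through 1 site alone, with at most 1 library outside it, got no test in that set. Col28a1, which passed without a PL library, got none for PL whole tumours. Both choices were made after seeing the data. Genes of the 4 collagen pathway lists were named where called. The members, lists and tests were chosen with earlier results of these data known.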

Additional observations from a re-analysis of the deposited data

Results flagged for a closer look

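Within groups of 5 or 6 libraries, 9 of 156 groups of a collagen chain (5.77%) held a library far from the rest by Dixon's criterion, where chance gives about 1 in 20. That rate holds for independent groups, and these share libraries, so the count cannot show whether any library is unusual. Among whole tumours, IP replicate 2 stood above the other IP tumours for Col5a1 (188.1 TPM, others 126 to 138), Col5a2 (180.5 TPM, others 125 to 139) and Col6a3 (54.5 TPM, others 37.2 to 40.3). PL replicate 3 stood below the other PL tumours for Col6a1 (82.5 TPM, others 179 to 245) and Col6a2 (56.3 TPM, others 121 to 172), and PL replicate 1 above them for Col10a1 (3.68 TPM, others 0.745 to 1.46). Among sorted cells, PL replicate 1 was high for Col1a1 (253 TPM, others 205 to 216), and SC replicate 4 was low for Col4a5 (16.01 TPM, others 22.3 to 24.6) and Col10a1 (1.52 TPM, others 4.80 to 5.87).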

How the results depend on the processing

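Of 17 member calls in whole tumours, 13 held under every alternative run, and of 23 in sorted cells, 13 did; none changed direction. Without the members kept by 1 site, 9 of 12 and 9 of 19 held, with Col28a1 in PL over SC still counted in the 12. Of comparisons not called, 5 of 70 in whole tumours and 10 of 46 in sorted cells passed the threshold under at least 1 alternative, as did 9 of 30 partner ratios. Leaving out 1 library in turn gave 1 to 3 chains higher and 6 to 9 lower in PL over SC whole tumours, 1 to 2 higher and 5 to 7 lower in IP over SC whole tumours, and 0 in PL over IP whole tumours. In sorted cells it gave 5 to 9 lower in PL over SC, 8 to 16 lower in IP over SC, and 0 to 6 higher and 0 to 1 lower in PL over IP. Shares of all genes with libraries left out are not given, so these counts cannot be read as particular to collagens. Counts that moved by over 1.5 times were 1 higher without SC replicate 2 in PL over SC whole tumours, 2 higher without SC replicate 1 in IP over SC whole tumours, 8 lower without IP replicate 2 or SC replicate 1 in IP over SC sorted cells, and, higher in PL over IP sorted cells, 0 without PL replicate 3, PL replicate 5, IP replicate 2 or IP replicate 5, 1 without PL replicate 2, 5 without IP replicate 1 and 6 without IP replicate 4. Without SC sorted replicates 1 and 2, or without IP sorted replicates 2 and 5, 8 chains were lower in IP over SC, with Col10a1, Col1a2, Col4a2, Col4a3, Col5a1 and Col5a2 lost. In PL over IP sorted cells, 4 chains were higher with the filter of 5 TPM, 7 with median-of-ratios scaling, 7 with quantile normalization and 0 without IP replicates 2 and 5, where calls over all genes were 5.70%, 8.60% and 7.81% higher in the first 3, against 4.45% in the main setting; 1 chain, Col16a1, was lower with the first 3 of these, with only the 2 sites compared and with library weights. The cause of these changes was not tested.

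With the replicate number as a block, 2 chains were higher in PL over SC whole tumours, without Col9a3 (log2 fold change 0.61), which was kept by 1 site and is given without a test. In sorted cells 7 were lower in PL over SC, where Col18a1 was lost (-0.73, adjusted p = 0.0530) and Col10a1 gained, and 13 in IP over SC, where Col4a2 was lost (-0.58, adjusted p = 0.0612). The block changed no other member call. The share of called genes that were higher was 73.4% in PL over SC whole tumours, 46.0% with median-of-ratios scaling and 48.4% with quantile normalization, and 70.1%, 45.5% and 48.2% in IP over SC. In sorted cells it was 24.1%, 28.1% and 39.7% in PL over SC, 42.9%, 42.6% and 61.3% in IP over SC and 44.7%, 55.2% and 43.3% in PL over IP. For members under about 1 TPM, the size of a change depends on the pseudocount.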
